A study of Sus scrofa with 6 samples.

Results

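The genes described here write, copy, oxidise and protect DNA methylation: *DNMT1*, *UHRF1*, *DNMT3A*, *DNMT3B*, *TET1*, *TET2*, *TET3*, *TDG*, *ZFP57* and *TRIM28*. They were chosen by name from a table of 17678 porcine genes, and all 10 were found. Embryos at the 2-cell stage were collected 32 h after they had been activated without sperm, and their polyadenylated mRNA was sequenced. The NC and the SIN3A_KD group (here KD) had 3 replicates each, and each replicate pooled 20 embryos. The oocytes of both groups came from the ovaries of slaughtered crossbred pigs (Landrace, Yorkshire and Duroc), were matured *in vitro* and were injected with siRNA at the MII stage before activation. NC oocytes received a non-specific siRNA. KD oocytes received a mix of siRNAs against different sites of *SIN3A*, the scaffold of the SIN3/HDAC corepressor complex, which can also bind TET1. Parthenogenetic embryos carry maternal genomes alone, so no paternal genome was present in either group.

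DNMT1 copies methylation onto the new strand after replication, and UHRF1 brings it to hemimethylated sites. DNMT3A and DNMT3B add methylation where there was none. TET1, TET2 and TET3 oxidise 5-methylcytosine, TDG excises the most oxidised forms so that base excision repair can restore cytosine, and ZFP57 with its partner TRIM28 keeps methylation at imprinted loci. In early embryos much of the inherited methylation is lost while imprints are kept, and the mRNAs for this work are stored by the oocyte before the embryonic genome is active. TET3 is the TET enzyme best known in the oocyte and zygote.

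The deposited values are read estimates per gene, normalized between libraries by the authors and named normalized abundance below. The spacing of low values put the depth at 7800000 to 12900000 reads for NC and at 10200000 to 15800000 reads for KD, where 1 read was worth 0.718 to 1.46 units of abundance. The abundance of *SIN3A* fell to 8.22% of the NC mean in KD embryos, with 9.46%, 3.12% and 12.1% left in KD replicates 1 to 3 (limma adjusted p = 8.45e-06, but 0.423 when no variance trend was used and 0.469 after robust empirical Bayes). Of the oocyte and early embryo markers, 12 of 15 were found, and their summed abundance was 90100 to 100002 in NC and 87747 to 108730 in KD libraries. The 11 cumulus and granulosa cell markers found, which mark the somatic cells around the oocyte, summed to 67.3 to 108 in NC and 92.0 to 114 in KD libraries, with 0 of the 4 tested called. Of these 11 markers 2 did not overlap between the groups, in opposite directions, against 9.79% of all genes with a mean abundance of at least 10. *PTX3* was at 0.762 to 2.21 in NC, near the value of 1 read, and listed at 0 in all KD libraries. *NR5A2* was at 4.28 to 12.4 in NC and 13.9 to 16.4 in KD libraries. Both rest on low values, and 7 of the 11 markers had a mean abundance under 10 and were not tested. A difference in somatic cells can therefore not be judged from them. In whole pooled embryos, fewer cells and less mRNA per cell cannot be told apart. The study calls its replicates independent without saying whether they came from separate collections of oocytes. The p-values measure the spread between these 6 pools, which may be partly technical.

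None of the methylation and TET genes passed the test between KD and NC. Genes with a mean abundance of at least 10 were compared with limma on log2(value + 1) over the whole table, and 19 of 11986 genes (0.159%) had an adjusted p below 0.05. Of the 10 genes, 8 reached that mean and 0 were called, with an adjusted p of 0.997 for each; 0.0584% of all genes tested were called on the higher side. *TET3* was the 1 gene of the 8 with an unadjusted p below 0.05, against 4.61% of all genes tested. Differences are given below as log2FC, the fitted log2 fold change of KD over NC, with its standard error (SE) and its 95% confidence interval (interval). Across the 8 genes, the intervals ran from 0.683-fold to 1.67-fold, and without *TET1*, the least abundant of them, from 0.878-fold to 1.35-fold. The smallest change called anywhere in the table was 0.55 on the log2 scale.

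**Figure D1:**
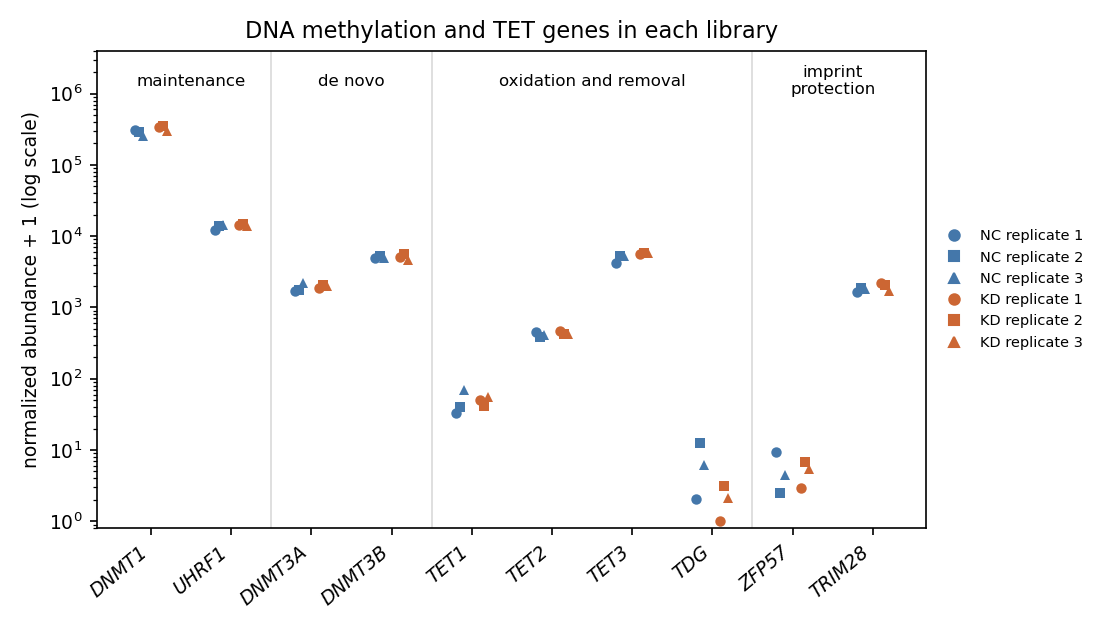
Normalized abundance plus 1 on a log scale for each of the 10 genes, with 1 point per library (blue NC, orange KD, the marker shape gives the replicate number). *DNMT1* lies at 257780 or more in every library, *TDG* and *ZFP57* lie below 12, and the NC and KD points of a gene lie close together except for the scarce *TDG* and *ZFP57*, whose points are spread out.

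*DNMT1* was the leading transcript of the group. Its abundance was 310640, 288202 and 257780 in the NC replicates 1, 2 and 3, and 342567, 351980 and 299669 in the KD replicates in the same order. It took 2.33% to 2.73% of all values in NC libraries and 2.68% to 3.10% in KD libraries, and was the gene with the second highest value of the table in all 6. The lowest KD library, replicate 3, lay below the highest NC library, replicate 1, so the groups overlapped. The mean was 285541 ± 26531 for NC and 331406 ± 27884 for KD (SD, n = 3 each), giving a log2FC of 0.22 (SE 0.10, interval -0.0017 to 0.43, limma adjusted p = 0.997). *DNMT1* (ENSSSCG00000013659) maps to the minus strand of chromosome 2 in the Sscrofa11.1 assembly, between 68981564 and 69040364, and its longest RefSeq mRNA has 41 exons. After quantile normalization, which gives a gene of constant rank the same value in every library, its log2FC was 0.00.

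*UHRF1*, the partner that guides DNMT1, was the next most abundant. Its values were 12022, 13697 and 14307 in the NC replicates and 14477, 15022 and 13838 in the KD replicates, in order. NC replicate 1 was the lowest library, and the other 5 lay within a narrow band in which the groups overlapped. The log2FC was 0.12 (SE 0.09, interval -0.06 to 0.30, limma adjusted p = 0.997). *UHRF1* (ENSSSCG00000013517) lies on the same chromosome and strand as *DNMT1*, from 73898061 to 73937727.

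The *de novo* enzymes differed between the groups by less than the spread between libraries. *DNMT3B* had values of 4958, 5279 and 4912 in the NC replicates and 5185, 5638 and 4677 in the KD replicates, in order. Its highest and its lowest value were both in KD libraries. The difference for *DNMT3B* was a log2FC of 0.03 (SE 0.09, interval -0.16 to 0.22, limma adjusted p = 0.997). For *DNMT3A* the values were 1694, 1759 and 2235 in the NC replicates and 1870, 2033 and 2027 in the KD replicates, in order, and all 3 KD libraries lay between NC replicates 2 and 3. For *DNMT3A* the log2FC was 0.07 (SE 0.11, interval -0.16 to 0.30, limma adjusted p = 0.997). *DNMT3B* (ENSSSCG00000007252) lies on chromosome 17 from 36345715 to 36386076, and *DNMT3A* (ENSSSCG00000029413) on chromosome 3 from 113501972 to 113609148.

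Among the oxidising enzymes *TET3* had the highest values. It had values of 4189, 5313 and 5250 in the NC replicates and 5666, 5859 and 5720 in the KD replicates, in order. The 3 KD libraries all lay above the 3 NC libraries, and NC replicate 1 stood well below the rest. The mean was 4917 ± 632 for NC and 5748 ± 99.5 for KD (SD, n = 3 each), giving a log2FC of 0.23 (SE 0.10, interval 0.03 to 0.44, unadjusted p = 0.0261, adjusted p = 0.997 from limma). An exact two-sided permutation p of 0.1 is the lowest possible with 3 replicates against 3, and *TET3* had that p. Groups that did not overlap were found for 1173 of the 11986 genes tested (9.79%), for 581 with KD on the higher side (4.85%) and for 592 with KD on the lower side (4.94%), against 1 of the 8 methylation and TET genes (12.5%), *TET3* itself. Without NC replicate 1 the log2FC of *TET3* was 0.12. *TET3* (ENSSSCG00000008292) lies on the minus strand of chromosome 3, between 68918896 and 69020406.

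*TET2* was less abundant than *TET3* in every library, and *TET1* was the least abundant of the 8 genes tested. The values of *TET2* were 455, 382 and 407 in the NC replicates and 472, 418 and 418 in the KD replicates, in order, with a log2FC of 0.07 (SE 0.12, interval -0.19 to 0.34, limma adjusted p = 0.997). *TET1*, a family member known to join the SIN3A complex, had values of 32.3, 39.4 and 68.6 in the NC replicates and 48.6, 40.2 and 54.9 in the KD replicates, in order. All KD libraries of *TET1* lay inside the NC range, whose coefficient of variation was 41.2%. For *TET1* the log2FC was 0.10 (SE 0.31, interval -0.55 to 0.74, limma adjusted p = 0.997), so changes between 0.683-fold and 1.67-fold were within the interval of this gene. *TET2* (ENSSSCG00000009157) lies on chromosome 8 from 116413253 to 116546976, and *TET1* (ENSSSCG00000010241) on chromosome 14 from 71675671 to 71812732.

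*TDG*, the glycosylase that acts after the TET enzymes, was hardly detected. Its values were 1.04, 11.7 and 5.13 in the NC replicates, 2.16 in KD replicate 2 and 1.10 in KD replicate 3, and it was listed at 0 in KD replicate 1. These are a few reads per library, the groups overlapped, and the mean stayed under the minimum for testing. Without that minimum, the log2FC of *TDG* was -1.53 with a 95% confidence interval of -3.09 to 0.03 (limma adjusted p = 0.994). *TDG* (ENSSSCG00000000847) lies on chromosome 5 from 80473233 to 80492295.

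Of the imprint protection pair, *TRIM28* was abundant and *ZFP57* was not. *TRIM28*, a corepressor recruited by KRAB zinc finger proteins, had values of 1635, 1875 and 1838 in the NC replicates and 2193, 2049 and 1688 in the KD replicates, in order. KD replicates 1 and 2 were the highest libraries, and KD replicate 3 fell among the NC values. For *TRIM28* the log2FC was 0.14 (SE 0.11, interval -0.08 to 0.37, limma adjusted p = 0.997). *ZFP57*, the zinc finger protein that reads the methylated imprint, had values of 8.35, 1.47 and 3.40 in the NC replicates and 1.95, 5.77 and 4.38 in the KD replicates, in order. The KD values lay within the NC range, and the mean was too low for testing. *TRIM28* (ENSSSCG00000037920) lies on chromosome 6 from 63094382 to 63101532, and *ZFP57* (ENSSSCG00000001247) on chromosome 7 from 22607420 to 22612064.

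**Figure D2:**
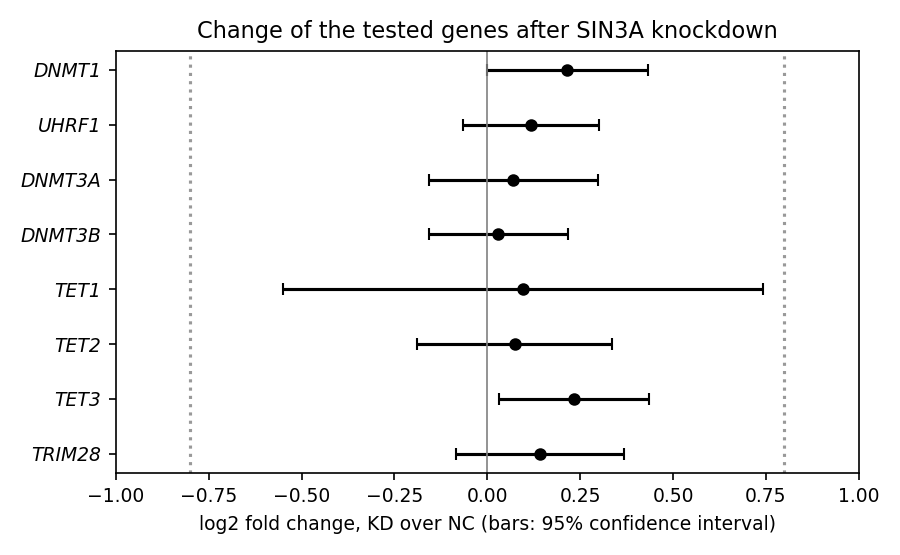
Log2FC of KD over NC for the 8 genes tested (points), with 95% confidence intervals of limma (bars) and dotted lines at 0.8 on either side, the fold threshold of the study's own analysis. All points lie between 0.03 and 0.23, all bars stay inside the dotted lines, and the bar of *TET3* alone does not reach 0.

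The fitted log2FC values of all 8 tested genes were above 0, with a median of 0.11, against 50.6% above 0 and a median of 0.0026 over all genes tested. This held with a trimmed-mean rescaling of the libraries, while quantile normalization put *DNMT1* at 0.00 and *DNMT3B* at 0.0026. Leaving out 1 library turned *DNMT3A*, *DNMT3B* or *TET1* below 0. A correction for GC content and mRNA length put *DNMT3A* at 0.0020, *DNMT3B* at 0.0034 and *TRIM28* at 0.05. The mRNA of *TRIM28* has a GC content of 65.6%, the highest of the 10, against a median of 50.5% over the genes tested.

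To compare levels between genes, abundance was divided by the length of the longest RefSeq mRNA in kb. On this scale *DNMT1* ranked first of 13913 genes with a length in all 6 libraries, at 50880 ± 4727 (SD, n = 3) per kb in NC and 59053 ± 4969 (SD, n = 3) per kb in KD embryos. *UHRF1* followed at 3249 ± 288 per kb in NC and 3517 ± 144 per kb in KD, then *DNMT3B* at 1179 ± 46.7 and 1207 ± 112, and *TRIM28* at 585 ± 42.3 and 649 ± 85.4. *TET3* was at 397 ± 51.1 per kb in NC and 465 ± 8.04 per kb in KD, *DNMT3A* at 151 ± 23.5 and 157 ± 7.34, *TET2* at 40.5 ± 3.60 and 42.6 ± 3.06, and *TET1* at 7.21 ± 2.97 and 7.39 ± 1.14 (SD, n = 3 each). From *DNMT1* down to *TET1* and *ZFP57*, each gene was above the next in 6 of 6 libraries and the ranges of neighbours over the libraries did not overlap. *ZFP57* and *TDG* at the end of the order overlapped. With the median length of each gene's RefSeq mRNAs in place of the longest, the order was the same, and *DNMT3A*, whose longest mRNA differs most from its median, moved from 154 to 204 per kb over all libraries.

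**Figure D3:**
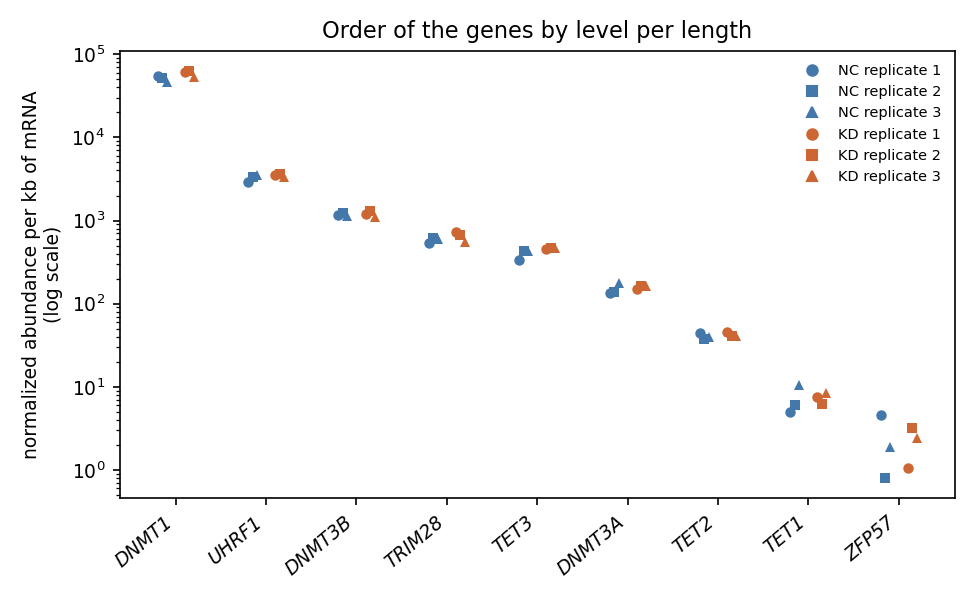
Normalized abundance per kb of the longest RefSeq mRNA on a log scale, with the genes in falling order and 1 point per library (blue NC, orange KD). Neighbouring genes do not overlap down to *ZFP57*, and *DNMT1* lies 7532 times above *TET1*; *TDG*, listed at 0 in 1 library, is left out.

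Ratios within a library do not depend on the scaling between libraries. *TET3* stood at 6.12, 8.36 and 9.24 per 1000 of *DNMT1* on the per kb scale in the NC replicates and at 7.50, 7.55 and 8.66 in the KD replicates. The KD ratios lay inside the NC range, with means of 7.91 in NC and 7.90 in KD embryos. *UHRF1* stood at 52.9, 64.9 and 75.8 per 1000 of *DNMT1* in NC and at 57.7, 58.3 and 63.1 in KD, again inside the NC range. The ratio of *DNMT3A* to *DNMT3B* was 0.128 ± 0.023 in NC and 0.131 ± 0.014 in KD embryos (SD, n = 3 each), and *TET3* stood at 9.94 ± 2.05 times *TET2* in NC and 10.96 ± 0.897 times in KD embryos (SD, n = 3 each).

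The wider pathway was read from 7 lists with 71 genes, of which 62 were found by name and 54 were tested. None of the 54 had an adjusted p below 0.05 by limma. An unadjusted p below 0.05 was found for 4 of them (against 4.61% of all genes tested), *HELLS*, *KDM1B*, *ZBTB38* and *ZNF445*, which are named here after their values were seen. The log2FC was above 0 for 27 and below 0 for 27, with a median of -0.00078. Groups did not overlap for 8 of 54 (14.8%, against 9.79% of all genes tested), 3 with KD higher and 5 with KD lower. A further 6 genes without a name in the deposited table were matched by identifier, *APEX1*, *CBX1*, *IDH1*, *KMT2A*, *OGT* and *POLB*, and 0 of these were called. Groups did not overlap for 2 of these 6, *APEX1* and *OGT*, both with KD lower (against 9.79% of all genes tested). The 3 listed genes that were matched in neither way are not described.

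The 8 cofactors of maintenance found held *HELLS*, the pathway gene with the lowest p; of the 7 tested, 5 had a log2FC above 0 and 0 were called. *HELLS*, a chromatin remodeller that opens nucleosomal DNA for methylation, had values of 387, 332 and 353 in the NC replicates and 546, 485 and 546 in the KD replicates, in order. Its lowest KD library was above the highest NC library. The log2FC for *HELLS* was 0.56 (SE 0.12, interval 0.30 to 0.82, limma adjusted p = 0.135), and with the correction for GC content and mRNA length it was 0.62 with an adjusted p of 0.00914. The mRNA of *HELLS* has a GC content of 37.5%. *LIG1*, the ligase that joins Okazaki fragments, was at 246 ± 16.2 in NC and 281 ± 7.62 in KD embryos (SD, n = 3 each) without overlap, and its adjusted p was 0.997 from limma.

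*PCNA*, the replication clamp that holds DNMT1 at the fork, and *UHRF2*, the relative of UHRF1, were among the most abundant genes of the table. By the mean per kb over the 6 libraries, *PCNA* had rank 3 and *UHRF2* rank 4 of 13913, and *DNMT1* had rank 1. *UHRF2* was singled out after its values were seen. It was 7.51 ± 1.35 times *UHRF1* per kb in NC and 7.01 ± 0.144 times in KD embryos (SD, n = 3 each). The log2FC was 0.03 (SE 0.09) for *UHRF2* and 0.00053 (SE 0.11) for *PCNA*, and *PCNA* turned to -0.07 with quantile normalization. *USP7*, *CDCA7* and *CDCA7L*, also of this list, did not pass the test.

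Among the cofactors of *de novo* methylation, *KDM1B*, the H3K4 demethylase needed for methylation of imprinted genes in the oocyte, had the lowest p of the 5 tested, of which 2 had a log2FC above 0, 3 below, and 0 were called. Its values were 2917, 2800 and 3036 in the NC replicates and 2408, 1988 and 2599 in the KD replicates, in order. Every KD library was below every NC library, with the lowest in KD replicate 2. The log2FC was -0.33 (SE 0.10, interval -0.55 to -0.12, limma adjusted p = 0.632). *SETD2*, which writes H3K36 trimethylation, had a larger but less certain log2FC of -0.37 (SE 0.28), which was -0.12 without KD replicate 2. *CXXC1*, a CpG-binding subunit of the SET1 complex, had a log2FC of 0.09 (SE 0.11). By the mean per kb over the 6 libraries *CXXC1* was the most abundant of the list, at 478 against 470 for *KDM1A*. In NC embryos *KDM1A* was higher, at 497 against 461 per kb.

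**Figure D4:**
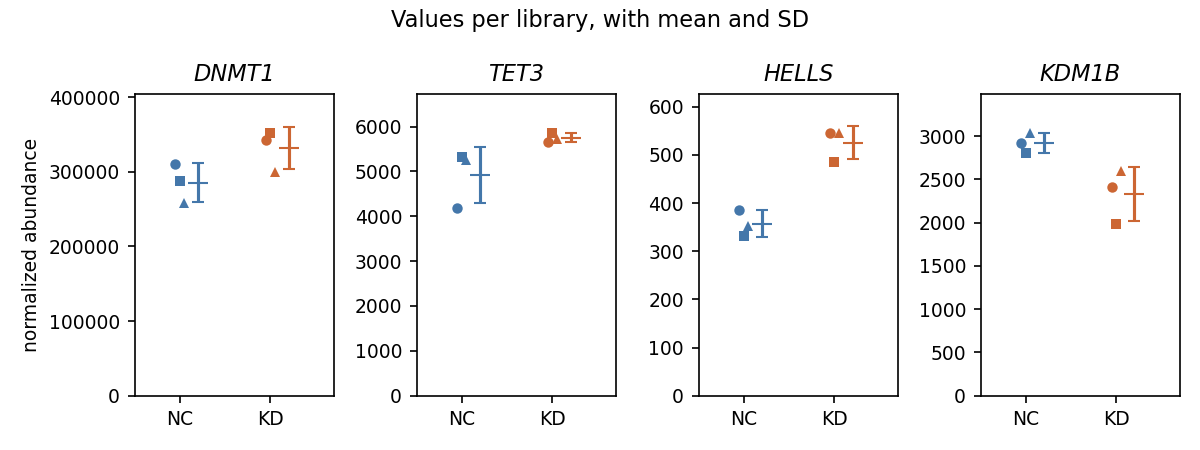
Normalized abundance of *DNMT1*, *TET3*, *HELLS* and *KDM1B* on linear axes from 0, with 1 point per library (marker shape for replicate number) and the mean with SD (bars, n = 3) beside the points. The groups overlap for *DNMT1*; KD lies above NC for *TET3* and *HELLS* and below NC for *KDM1B*, none of them past the adjusted p.

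Of the TET regulators and partners, 9 were tested and 0 were called. *GADD45B*, a stress-induced protein linked to demethylation, had the largest log2FC, 0.79 (SE 0.47, limma adjusted p = 0.997), at a mean of 13.3 in NC and 22.7 in KD embryos with overlapping groups. It was 0.44 without NC replicate 1, 1.13 without NC replicate 2 and 0.50 with a pseudocount of 10. *DDB1*, the adaptor of the CUL4 ubiquitin ligase that modifies TET enzymes, was the most abundant per kb and had a log2FC of 0.13 (SE 0.10), which was 0.07 without KD replicate 1 and 0.22 without KD replicate 3. *OGT*, the glycosyltransferase that binds TET proteins and was found by identifier, was at 277 ± 32.4 in NC and 232 ± 6.57 in KD embryos (SD, n = 3 each). The groups did not overlap, and the log2FC of *OGT* was -0.25 (SE 0.14, limma adjusted p = 0.997).

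The base excision repair list, whose enzymes follow TET and TDG, had 9 tested genes found by name, and 0 were called. Of these 9, 6 had a log2FC below 0, and the median was -0.11. Over all genes tested, 50.6% had a log2FC above 0 and the median was 0.0026. *NEIL2*, a glycosylase for oxidised bases, was at 63.0 ± 13.2 in NC and 48.5 ± 1.93 in KD embryos (SD, n = 3 each) without overlap, a log2FC of -0.35 (SE 0.25, limma adjusted p = 0.997), which was -0.19 without NC replicate 2. *UNG*, the uracil glycosylase and the most abundant of the list per kb, was at 2902 ± 171 in NC and 2909 ± 140 in KD embryos (SD, n = 3 each). *APEX1*, the endonuclease that cuts abasic sites and was found by identifier, had values of 130, 127 and 134 in the NC replicates and 91.5, 97.0 and 83.4 in the KD replicates, in order. The NC values of *APEX1* spread over a few units and every KD value lay below them. Its log2FC was -0.52 (SE 0.18, interval -0.91 to -0.14, unadjusted p = 0.0110, adjusted p = 0.852 from limma), so it was not called. *POLB*, also of this list and found by identifier, had a log2FC of -0.15 (SE 0.12).

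In the list of methyl-CpG readers and other MBD family members, 8 genes were tested. Of these, 3 had a log2FC above 0 and 5 below, and 0 were called. *MBD2* had the largest log2FC, 0.28 (SE 0.13, limma adjusted p = 0.997), with overlapping groups. *ZBTB38* was at 788 ± 38.1 in NC and 666 ± 29.0 in KD embryos and *MBD5* at 302 ± 11.7 and 252 ± 11.7 (SD, n = 3 each), both without overlap. *ZBTB33*, the most abundant of this list per kb, had a log2FC of -0.0021 (SE 0.10), which was 0.0011 with trimmed-mean rescaling and 0.041 with the GC and length correction.

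Of the list of TRIM28 partners and imprint protection genes, 6 were tested, 4 had a log2FC above 0 and 0 were called. *ZNF445*, another zinc finger protein that binds imprinted loci, was at 4900 ± 511 in NC and 5626 ± 149 in KD embryos (SD, n = 3 each) without overlap, with a log2FC of 0.20 (SE 0.09, limma adjusted p = 0.997). The lowest NC library was replicate 2, without which the log2FC was 0.11. Unlike *ZFP57*, it was well above the minimum for testing in all 6 libraries. *SETDB1*, the H3K9 methyltransferase that TRIM28 recruits and the most abundant of this list per kb, had a log2FC of -0.03 (SE 0.08).

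The methyl donor cycle, which supplies S-adenosylmethionine, had 0 of 10 tested genes called and 0 without overlap. Over all genes tested these shares were 0.159% and 9.79%. *MAT2A*, which makes S-adenosylmethionine and was the most abundant of the list per kb, had a log2FC of -0.08 (SE 0.12), and *MTRR*, which keeps methionine synthase active, had the largest, -0.25 (SE 0.17), which was -0.09 without NC replicate 1.

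**Figure D5:**
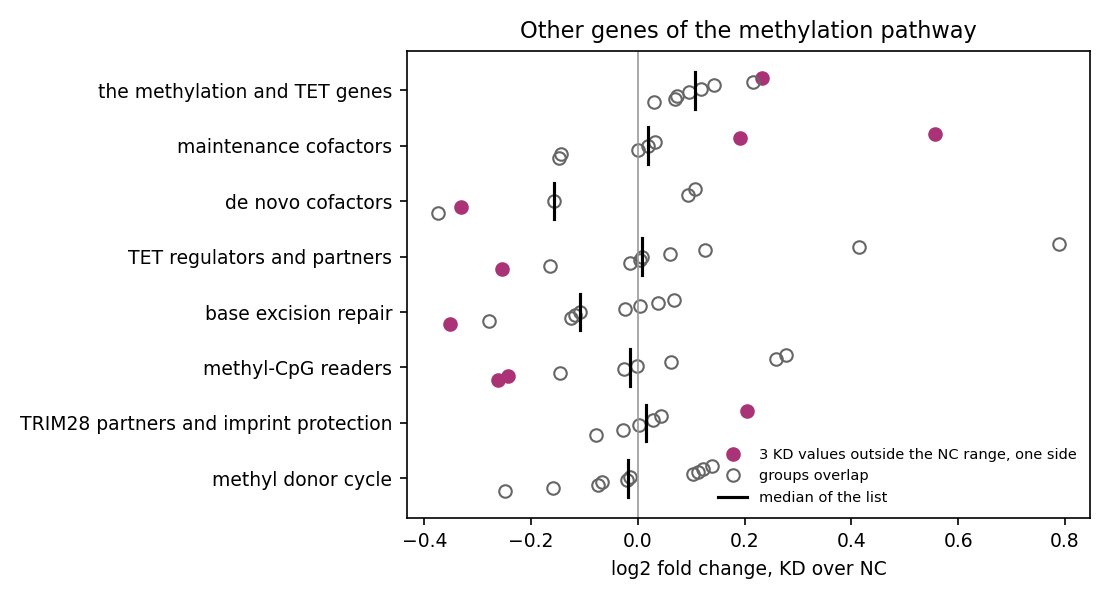
Log2FC of KD over NC for the 8 tested methylation and TET genes and the 54 tested genes of the 7 lists (points), with the list median (black bar). Filled points mark genes whose 3 KD values all lie on one side of all 3 NC values; *HELLS* at 0.56 is the highest of these, and most points lie within 0.4 of 0.

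The genes most like *DNMT1* over the 6 libraries, by Pearson's r of log2(value + 1) among 11985 other tested genes, were *ARHGAP18* (r = 0.987), *STAT3* (r = 0.985) and ENSSSCG00000000220 (r = 0.984). Among those most like *TET3* was *WDR45B* (r = 0.995). With 6 libraries such values are common, since 84 genes had an r above 0.9 with *DNMT1* and 190 with *TET3*; the points share depth and scaling, and these likenesses are a description without a test.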

How the data were processed

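Per the submitters' processing notes, the authors quantified transcripts with Salmon 0.14.1 on the Sscrofa11.1 assembly and used DESeq2. The deposited table gives 1 normalized signal for each Ensembl gene and library. The annotation release is not given in the sources used here. Library medians of ratios were 1.01 in all 6 libraries, and 61.9% to 72.6% of low values lay within 0.05 of a whole multiple of 1 read. Most low values thus look like reads scaled per library, and the others were fractional. Because the table is named normalized, a count model was not assumed.

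Groups and replicate numbers came from the sample labels. Genes with a mean of at least 10 were fitted on log2(value + 1) with limma 3.58.1 in R 4.3.3 (lmFit, eBayes with a variance trend), with Benjamini-Hochberg adjustment over 11986 genes. Because of the pseudocount, differences of low genes are understated. For single genes an exact permutation test (two-sided) was added. Tables were handled with Python 3.11.15, pandas 2.3.3, numpy 2.4.6 and pysam 0.24.0. Lengths, GC content and positions came from RefSeq mRNAs of Sscrofa11.1, matched by symbol for 10228 tested genes (85.3%); names for 6 pathway genes came from a table of Ensembl identifiers. On simulated data with 11900 genes, 97.8% of 2-fold and 100% of 4-fold changes were called. The simulation gave every gene the same spread beyond read sampling and changed only genes above a mean higher than the filter. It checks the code and does not give the power for scarce or variable genes. *TET1*, for example, had a coefficient of variation of 41.2% in NC.

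The genes and lists were chosen with earlier results of these data known. All 10 genes were named, with *SIN3A*, any pathway gene called, the largest fold change and the highest level per kb of each list, and the 3 genes most like *DNMT1* and *TET3*; some of these are not reported here. Others were named after their values were seen: *LIG1*, *KDM1B*, *ZBTB38*, *MBD5*, *UHRF2*, *APEX1*, *POLB* and *OGT*. The spike-ins named in the protocol did not enter this work, and total mRNA per embryo was not assessed. Alternatives were other pseudocounts (0.1 and 10), other filters (none, or a mean of 100), trimmed-mean rescaling, quantile normalization, no variance trend, a robust empirical Bayes step, the replicate block, a correction for GC content and length, and leaving out each library.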

Additional observations from a re-analysis of the deposited data

How the results depend on the processing

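The count of methylation and TET genes called was 0 in the main analysis and in all 17 alternatives. The lowest adjusted p of any of them was 0.0579, for *DNMT1* with the replicate block and the GC and length correction. The count of pathway genes called was 0 and became 1 (*HELLS*) with that correction and 1 with the block and that correction together. The count over all genes was 19; it was 34 with the correction, 56 with the block and the correction, 26 with the replicate block, 0 without the variance trend (622 genes at an unadjusted p below 0.05), and 11 to 19 when 1 library was left out, with 12 without NC replicate 2, 12 without NC replicate 3 and 11 without KD replicate 2. The causes were not tested. The same-numbered libraries had correlations of 0.109, 0.111 and 0.0872 after subtraction of group means, and 6 of 6 correlated best with their own number, a hint from the data; the labels do not say that the numbers pair samples. The block changed no call of a named gene. Leaving out 1 library gave a log2 fold change of 0.14 to 0.29 for *DNMT1*, 0.04 to 0.17 for *UHRF1*, -0.0052 to 0.19 for *DNMT3A*, -0.036 to 0.099 for *DNMT3B*, -0.13 to 0.40 for *TET1* (-0.0067 without KD replicate 3), 0.02 to 0.14 for *TET2*, 0.12 to 0.29 for *TET3* and 0.06 to 0.25 for *TRIM28*. It also turned the sign of *CXXC1* (-0.013 to 0.21), *MAT2A* (-0.19 to 0.0011), *PCNA* (-0.12 to 0.12, with -0.084 without KD replicate 1), *SETDB1* (-0.070 to 0.022), *UNG* (-0.039 to 0.046, with -0.031 without KD replicate 1) and *ZBTB33* (-0.091 to 0.11, with 0.022 without KD replicate 2). Quantile normalization put *PCNA* at -0.066 and *UNG* at -0.010, trimmed-mean rescaling put *ZBTB33* at 0.0011, and the correction put it at 0.041 (0.041 together with the block). The level of *SIN3A* left in KD was 6.29% to 10.8% when 1 library was left out. At a few reads per library, changes of *TDG* and *ZFP57* are limited by depth.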

Other observations

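*CXXC5*, a CpG-binding protein that can bind TET2, lay below the minimum for testing and was singled out after its values were seen. Its values were 11.5, 5.88 and 9.20 in the NC replicates, 2.92 and 3.63 in KD replicates 1 and 2, and it was listed at 0 in KD replicate 3. The groups did not overlap, but the values were low, at 11.5 or less in every library, and were not tested.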
